A study of Mus musculus with 8 samples.

Results

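The step from 30min to 1h of Ikaros (IKZF1) induction was examined with the 2 ATAC-seq peak lists of 30min and the 2 of 1h, which are 4 of the 8 libraries in the series. ATAC-seq cuts open DNA with the Tn5 transposase, so that a peak marks accessible chromatin. All 4 libraries came from the mouse pre-B line B3 carrying Ikaros-ERt2 by transduction, in which IKZF1 is joined to a hormone-binding domain and enters the nucleus when 4-hydroxytamoxifen (4-OHT) is added. Both groups had 500 nM 4-OHT, for 30min or for 1h, and carried the construct. The comparison therefore has no untreated arm, no arm with 4-OHT alone and no arm without the construct, and effects of the drug and of IKZF1 over this interval cannot be told apart. The cells were a single line carrying a retroviral construct, sorted for its reporter, and the labels do not say whether replicates were separate cultures, so p-values measure only the spread between these libraries, which may be technical.

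IKZF1 is a zinc finger protein that is needed for B cell development and is often deleted in B cell leukaemia. It binds DNA words with a GGAA or GGGA core and is best known in pre-B cells for bringing the nucleosome remodelling and deacetylase complex (NuRD) to enhancers and promoters. In pre-B cells it restrains genes of the pre-B cell receptor (pre-BCR), whose surrogate light chain is made of VpreB and lambda5, and genes of growth and the cell cycle.

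The 30min lists held 99888 and 87731 peaks and the 1h lists 103850 and 93462. The background that the peak caller used, which follows depth, was 0.305 to 0.405 fragments per base, and the median peak had 12 or 13 fragments at its summit, so that a single peak is measured with low precision. Lists of the same time shared 63.23% (30min) and 62.58% (1h) of their covered bases, and lists of different times 59.91% to 61.12%, so the 2 times differed by little more than their replicates. Of 10 pre-B cell markers, 7 had a promoter region in all 4 lists (Cd79a, Cd79b, Pax5, Ebf1, Igll1, Rag2 and Blnk), as had 2 of 8 T cell markers (Cd3g and Cd28), 0 of 8 myeloid, 1 of 6 erythroid (Epor) and 1 of 5 fibroblast markers (Col1a1).

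Overlapping peaks of the 4 lists were merged into 138443 regions. A region with a peak in both 30min lists and in neither 1h list was called lost, and the reverse was called gained. In this step 3348 regions (2.42%) were lost and 5093 (3.68%) gained, 62711 (45.3%) were shared by all 4 lists, and 39237 (28.3%) stood in 1 list only. The excess of gains was not stable. With every list held to as many peaks as the shortest, 3933 regions were lost and 4063 gained. With 1 library left out, presence or absence at its time was judged from a single list. That is a looser rule than the main one, so those counts are not like the main counts. Without the second 30min library, which had the fewest peaks, 14967 were lost and 8144 gained. Leaving out the first 30min library gave 9504 lost and 11503 gained, the first 1h library 8123 and 13332, and the second 1h library 5991 and 18824. Lost and gained regions were weak. The median of both classes was 7.5 fragments at the summit (mean of the 2 lists that held the region), against 18.25 in shared regions, and 16 lost and 21 gained regions had over 20 fragments in both of their lists.

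The strongest lost and gained regions that could be printed show what these sites look like. Each sequence is the 100 bp around the summit on the plus strand of GRCm38, from the reference genome, with IKZF1 core words (GGAA or GGGA, or their reverse complements TTCC or TCCC) in capitals. The first 3 were lost.
Rgcc, chr14:79294677-79294776, plus strand: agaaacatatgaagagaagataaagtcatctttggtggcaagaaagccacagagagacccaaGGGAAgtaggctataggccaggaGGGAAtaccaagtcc
Il10, chr1:131006188-131006287, plus strand: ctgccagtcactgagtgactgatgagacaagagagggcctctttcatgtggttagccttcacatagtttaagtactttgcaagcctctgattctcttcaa
Adgra3, chr5:50587740-50587839, plus strand: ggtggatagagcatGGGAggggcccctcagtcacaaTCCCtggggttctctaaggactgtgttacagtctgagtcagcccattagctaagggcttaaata
The next 3 were gained.
Pdgfa, chr5:138913446-138913545, plus strand: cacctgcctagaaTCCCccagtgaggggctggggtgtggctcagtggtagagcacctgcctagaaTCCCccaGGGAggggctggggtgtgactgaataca
Fam122a, chr19:24391660-24391759, plus strand: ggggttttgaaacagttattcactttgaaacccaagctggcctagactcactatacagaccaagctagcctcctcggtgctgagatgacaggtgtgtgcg
Arih2, chr9:108630843-108630942, plus strand: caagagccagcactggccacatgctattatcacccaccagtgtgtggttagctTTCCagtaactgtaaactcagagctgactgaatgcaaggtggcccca
Among regions shared by the 4 lists, Plxna4 and Adgrf5 mark the largest falls in rank from 30min to 1h, and Zfp36l2 and Chrm1 the largest rises.
Plxna4, chr6:32718059-32718158, plus strand: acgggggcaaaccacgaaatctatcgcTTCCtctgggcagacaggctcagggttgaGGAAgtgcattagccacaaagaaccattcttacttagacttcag
Adgrf5, chr17:43442305-43442404, plus strand: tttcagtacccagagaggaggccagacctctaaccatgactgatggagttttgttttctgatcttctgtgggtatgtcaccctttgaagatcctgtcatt
Zfp36l2, chr17:84314477-84314576, plus strand: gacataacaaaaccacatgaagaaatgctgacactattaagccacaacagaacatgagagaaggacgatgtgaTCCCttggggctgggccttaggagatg
Chrm1, chr19:8662460-8662559, plus strand: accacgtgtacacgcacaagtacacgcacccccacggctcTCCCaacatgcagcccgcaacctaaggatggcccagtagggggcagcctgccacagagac
The windows next to the start sites of Vpreb1 and Vpreb2 were added after their values were seen, because they turned out to be lost in this step.
Vpreb1, chr16:16869304-16869403, plus strand: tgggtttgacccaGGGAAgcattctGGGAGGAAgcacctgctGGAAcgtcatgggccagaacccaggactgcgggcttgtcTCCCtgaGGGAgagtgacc
Vpreb2, chr16:17980267-17980366, plus strand: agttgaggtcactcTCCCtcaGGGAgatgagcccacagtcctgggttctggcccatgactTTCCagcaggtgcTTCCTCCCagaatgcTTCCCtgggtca
Of the printed bases, Vpreb1 and Vpreb2 hold 7 core words each, Rgcc 4, Pdgfa 3, Adgra3 and Plxna4 2 each, Arih2, Zfp36l2 and Chrm1 1 each, and Il10, Fam122a and Adgrf5 none.

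A loss at a gene with a pre-B cell role lay at the start site of Vpreb1, a surrogate light chain gene. The region (chr16:16869264-16869444, 9 bp upstream of the start site and 5279 bp from that of Igll1, which encodes lambda5) had 20 and 17 fragments at its summit in the 2 libraries of 30min, and no peak at 1h. The lists that did not enter the comparison had 79 and 43 fragments in untreated cells (0h) and no peak in either library of 2h. Fragments are as recovered and not scaled for depth. The order was the same in both replicates, from highest at 0h to intermediate at 30min to no peak from 1h on. Its paralog Vpreb2 had a lost region over its start site (chr16:17980233-17980462) with 9 and 8 fragments at 30min, none listed at 1h, 35 and 21 at 0h and none listed at 2h. By fold over local background both were among the weaker peaks at 30min. The Vpreb1 region ranked at the 17.1 and the Vpreb2 region at the 32.2 percentile, as means over the 30min lists. After the Vpreb2 window was turned to the other strand, 90 of 94 aligned bases (95.7%) of the printed Vpreb1 and Vpreb2 windows were identical, and how the alignment shared reads between these loci was not tested.

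**Figure D1:**
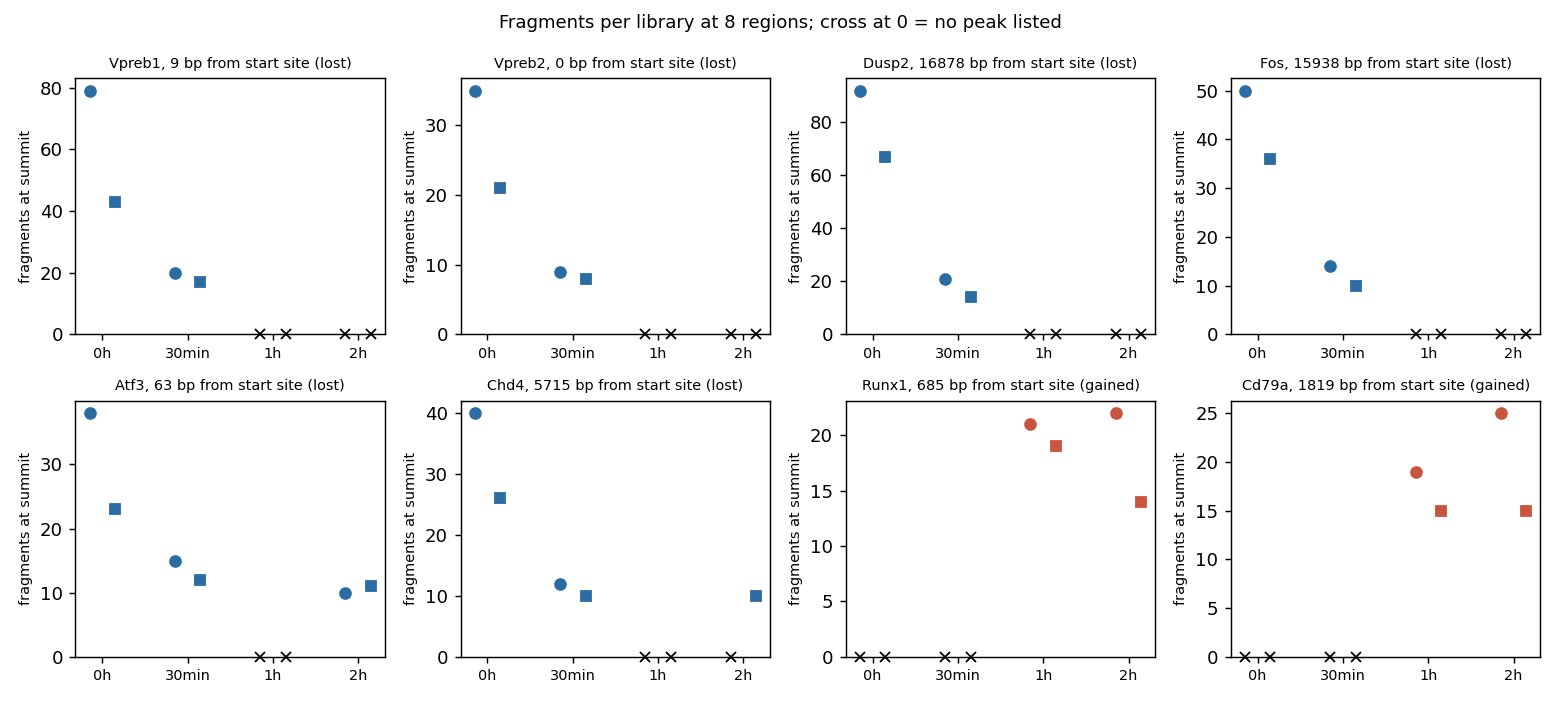
Fragments at the summit (y axis, deposited fold and p-value converted to fragments) in each library at 8 regions lost or gained between 30min and 1h, by time with 4-OHT (x axis). Circles are replicate 1, squares replicate 2, and a cross at 0 means that no peak was listed, not that fragments were absent. Of the lost regions shown, Vpreb1, Vpreb2, Dusp2 and Fos had no peak in any library of 1h or 2h, Atf3 had a peak again in both libraries of 2h, and Chd4 in 1 of them.

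Further pre-BCR and signalling genes followed in both directions. Within 20 kb of the start sites of 18 genes of the pre-BCR and its signalling lay 203 merged regions, of which 7 were lost (3.45%) and 7 gained (3.45%), beside 2.42% and 3.68% of all regions. Pik3cd, the delta catalytic subunit of phosphoinositide 3-kinase, lost a region over its start site that had 16 and 15 fragments at 30min, 56 and 32 at 0h, no peak at 1h and 16 fragments in 1 library of 2h. It also lost a region 12617 bp away (11 and 6 fragments at 30min, 11 and 11 at 2h) and gained 1 at 2043 bp (18 and 18 fragments at 1h) and 1 at 10532 bp (12 and 11). By fold, which is taken over a local background, the start-site region ranked only at the 0.0306 percentile of its lists. The other lost region ranked at the 12.9 percentile, and the gained regions at 2043 and 10532 bp at the 5.44 and 14.1 percentiles. Cd79a, a signalling chain of the receptor, gained a region in its coding exon, 1819 bp from the start, with 19 and 15 fragments at 1h, 25 and 15 at 2h and no peak at 0h or 30min. By fold that region ranked only at the 2.85 percentile of its 1h lists. A region 5525 bp from Cd79a, in an untranslated exon of Arhgef1, was present at 30min only (16 and 15 fragments) and holds 12 core words in 200 bp. Its fold ranked only at the 10.6 percentile of the 30min lists. Zap70, a kinase of antigen receptors, gained a coding-exon region with 8 and 7 fragments at 1h.

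Both kinds of region lay near genes of the IL-7 receptor pathway, which drives pre-B cell growth. Of 143 regions near 15 such genes, 5 were lost (3.5%) and 2 gained (1.4%), beside 2.42% and 3.68% of all regions, and within 50 kb the balance was even, with 10 lost (3.53%) and 11 gained (3.89%). A region between Stat5a and Stat5b, the transcription factors of the pathway, 2424 bp from the Stat5b start, fell from 21 and 18 fragments at 0h through 9 and 15 at 30min to no peak at 1h or 2h. The region 18817 bp from Jak1, the receptor's kinase, behaved alike, with 16 and 9 fragments at 0h, 11 and 8 at 30min and no peak later. Bcl2l1, which encodes the survival protein Bcl-xL, lost an intron region (11 and 10 fragments at 30min), which was again listed at 2h (10 and 15), and gained another (16 and 17 at 1h, 14 and 17 at 2h). The folds of these 2 Bcl2l1 regions ranked only at the 5.45 and 13.8 percentiles of the lists that held them.

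B-lineage transcription factor loci lost 10 and gained 9 of 266 regions near 24 genes (3.76% and 3.38%), beside 2.42% and 3.68% of all regions. Spib, an ETS factor of B cells, lost 3 regions and gained 1. The lost region with most fragments, 16436 bp away in an intron of Pold1, had 20 and 14 fragments at 30min and was listed neither at 0h nor at 1h, and in 1 library of 2h with 15. Its fold ranked only at the 11.4 percentile of the 30min lists. Runx1, a core factor of blood cells, gained an intron region 685 bp from a start site with 21 and 19 fragments at 1h, 22 and 14 at 2h and none listed before, and lost another 18911 bp away (11 and 8 at 30min). Klf2, which holds lymphocytes in quiescence, lost 2 regions (8 and 7, and 11 and 13 fragments at 30min), of which the nearer, at 2430 bp, was listed again at 2h (16 and 9). Spi1, which encodes PU.1, gained 2, of which that at 12486 bp had 12 and 11 fragments at 1h and no peak at any other time, and that at 6898 bp had 7 and 6 at 1h and then 5 and 6. The folds of these 2 Spi1 regions ranked at the 5.33 and 22.3 percentiles of the 1h lists.

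Immediate early genes had the highest share of lost regions among the 9 lists, with 11 of 231 (4.76%) lost and 5 (2.16%) gained near 19 genes. Over all regions the shares were 2.42% and 3.68%. A region 16878 bp from Dusp2, a phosphatase of MAP kinases, had 92 and 67 fragments at 0h, 21 and 14 at 30min and no peak at 1h or 2h. A second, 632 bp from the Dusp2 start, had 52 and 38 at 0h, 30 and 23 at 30min, none listed at 1h and 25 in 1 library of 2h, and holds 16 core words in 200 bp. By fold it ranked at the 12.1 percentile of its 30min lists. Near Fos, a subunit of AP-1, the region at 15938 bp went from 50 and 36 fragments to 14 and 10 and then to no peak, and that at 19757 bp from 14 and 7 to 8 and 13 and then to no peak. Atf3 lost a region 63 bp from its start, with 38 and 23 fragments at 0h, 15 and 12 at 30min, none listed at 1h and 10 and 11 at 2h. Jund, another AP-1 subunit, went the other way at 2 sites, of which that at 1711 bp had 20 and 14 fragments at 0h, no peak at 30min, 23 and 22 at 1h and none listed at 2h, while that at 2519 bp had no peak before 1h and then 21 and 13, followed by 21 and 18 at 2h.

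NuRD subunit genes lost 5 and gained 1 of 109 regions (4.59% and 0.917%, beside 2.42% and 3.68% of all), but within 50 kb 9 were lost and 9 gained (3.35% each). Chd4, the main helicase of the complex, lost a region 5715 bp from its start with 12 and 10 fragments at 30min, 40 and 26 at 0h and a peak of 10 in 1 library of 2h, and holds 11 core words there. That region ranked by fold only at the 13.1 percentile of the 30min lists. An intron region of Chd4 (12 and 10 at 30min), 1 of the related helicase Chd3 (11 and 10 at 30min, 18 and 21 at 0h) and 1 each near Gatad2a and Gatad2b made up the rest of the lost ones. All 5 were in at least 1 library of 0h.

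The other lists had up to 6 regions of either kind, and their shares stand beside 2.42% lost and 3.68% gained over all regions. Genes of G1 cyclins, kinases and inhibitors lost 4 and gained 2 of 166 regions (2.41% and 1.2%). A lost region 13509 bp from Cdkn1a, which encodes the inhibitor p21, had 26 and 24 fragments at 0h and 9 and 10 at 30min. It was listed in 1 library of 2h (9). Beside Cdk6, 2 regions were lost. That at 744 bp had 14 and 15 fragments at 30min and no peak at 2h. That at 1666 bp had 14 and 16 at 30min and was listed again at 2h (23 and 17). Their folds ranked only at the 9.29 and 9.06 percentiles of the 30min lists. The lost region in Rb1, the retinoblastoma gene, had 18 and 11 at 30min and 8 and 8 at 2h. Cdk4 gained a region at 13536 bp (7 and 8 fragments at 1h, 8 in 1 library of 2h). Integrin, adhesion and homing genes lost 1 and gained 6 of 167 (0.599% and 3.59%). Among the gains, 1 lay over the start site of Itga4, the alpha4 integrin, with 17 and 16 fragments at 1h and none listed at 30min or 0h. By fold it ranked at the 14.2 percentile of its 1h lists. Sterol synthesis genes lost 1 and gained 3 of 139 (0.719% and 2.16%), among them a gain in an intron of Fdft1, the squalene synthase gene, with 6 and 6 fragments at 1h. The 19 genes described in the study as repressed lost 5 and gained 2 of 172 regions (2.91% and 1.16%). Vpreb1 and Igll1 share a lost region, and Endod1 lost a region at 9153 bp (9 and 6 fragments at 30min, 9 in 1 library of 2h). Dntt went the other way and gained a region at 17378 bp, with 12 and 7 fragments at 1h, 9 and 11 at 2h and none listed before. This list was chosen by the study on cells of this system and is not independent evidence of a direction. In all 9 lists except that of the immediate early genes the 95% Wilson interval of the lost share held the share over all regions, the interval covers counting error only, and no list was tested.

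**Figure D2:**
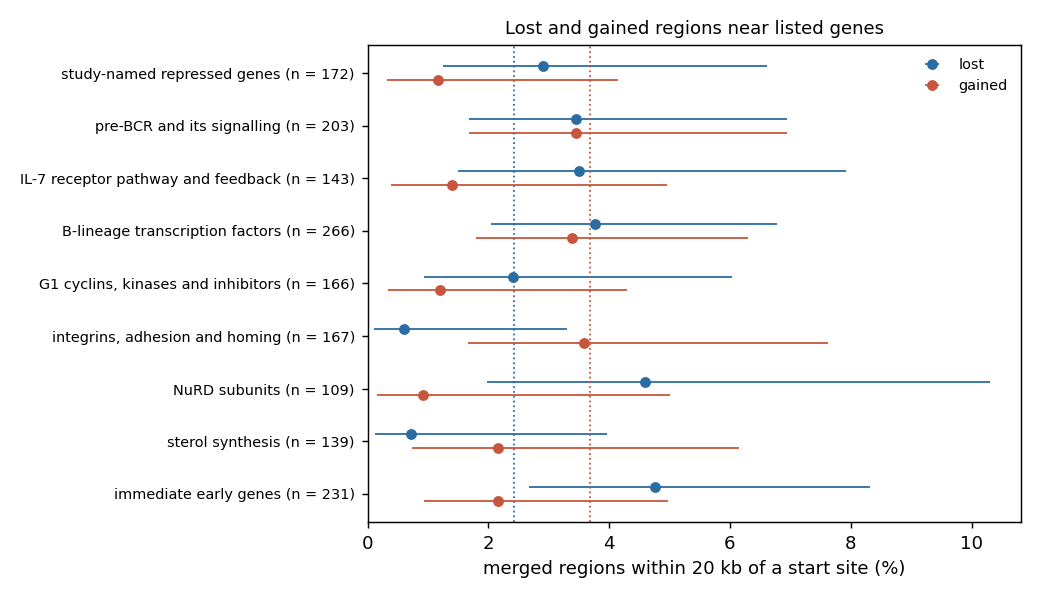
Share of merged regions within 20 kb of a start site of each gene list (y axis, n regions) that were lost or gained between 30min and 1h (x axis, percent). Points are shares, bars 95% Wilson intervals of the count, and dotted lines the shares over all 138443 regions, 2.42% lost (blue) and 3.68% gained (red). Immediate early genes lost 4.76% of their regions.

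The 8 strongest lost regions by rank all lay more than 1 kb from a start site, as did most regions. Within 1 kb lay 17.1% of lost and 19.9% of all regions. An intron region of Rgcc, a cell cycle regulator (chr14:79294648-79294771), had 27 and 27 fragments at 30min, none listed at 1h, and 33 and 32 at 0h, with 8 and 8 at 2h. The region 13497 bp from Il10, which encodes the cytokine IL-10 (chr1:131006178-131006348), had 14 and 14 at 30min and 28 and 19 at 0h, and no peak at 1h or 2h. In an intron of the kinase gene Hunk, a region (chr16:90396323-90396547) had 16 and 15 at 30min, 33 and 31 at 0h and none later. Of the 8 strongest, 5 had no peak at 2h either (those nearest to Sh3tc2, Il10, Cyp51, Adgra3 and Hunk) and all 8 had a peak in both 0h libraries. That nearest to Sh3tc2, 84643 bp away between genes, holds 15 core words in 200 bp, the most of the 8, and that nearest to Adgra3 lies 528678 bp from this gene in an intron of the non-coding Gm43016.

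The 8 strongest gained regions had the opposite record. The first, 81329 bp from Pdgfa, which encodes a growth factor (chr5:138913351-138913624), had no peak at 0h or 30min, 14 and 25 fragments at 1h, followed by 17 and 19 at 2h. The region in an intron of Ica1 (chr6:8711990-8712257) had 15 and 15 at 1h, followed by 28 and 28. The gained site in the ubiquitin ligase gene Arih2 (chr9:108630708-108630952) had 15 and 15, then 18 and 17. Of the 8, 6 had no peak in either 0h library (all but those nearest to Fam122a, inside Pip5k1b, and Ubac1), and all 8 had a peak in both 2h libraries. Perp, a membrane protein gene under p53 control, had a gained region at 5232 bp with no core word in 200 bp (19 and 16 fragments at 1h).

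The lists of 0h and 2h were not used to define lost and gained, and they give the record of the whole classes, which was more mixed than that of the 8 strongest. Of the lost regions, 1483 (44.3%) had a peak in both 0h lists and 558 (16.7%) in both 2h lists, and 838 (25%) in both 0h lists and neither 2h list. Of the gained regions, 359 (7.05%) were in both 0h lists and 2247 (44.1%) in both 2h lists, and 1725 (33.9%) in neither 0h list and both 2h lists. Over all merged regions the shares were 46.6% for 0h and 56.0% for 2h, with 4.48% and 10.5% for these 2 patterns. The lost share at 0h was thus below that of all regions. With 1 of the 1h libraries left out, gained regions needed a peak in a single 1h list and lost regions absence from a single one. Under this looser rule the order of the 2h shares turned. Without the first, 33.6% of lost and 25.1% of gained regions were in both 2h lists, and without the second 28.2% and 21.9%. How much of this came from the change of rule was not tested. In the 0h lists the lost share stayed above the gained share without any single library. Lost regions were chosen for a peak at 30min and gained regions for none, and how far a peak at 30min goes with a peak at 0h in any region was not tested, so these shares are descriptions. A smaller part had no peak outside its own time, 517 lost (15.4%) and 824 gained regions (16.2%). Over all merged regions 17.2% had no peak in any 0h or 2h list, so this was no trait of either class.

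**Figure D3:**
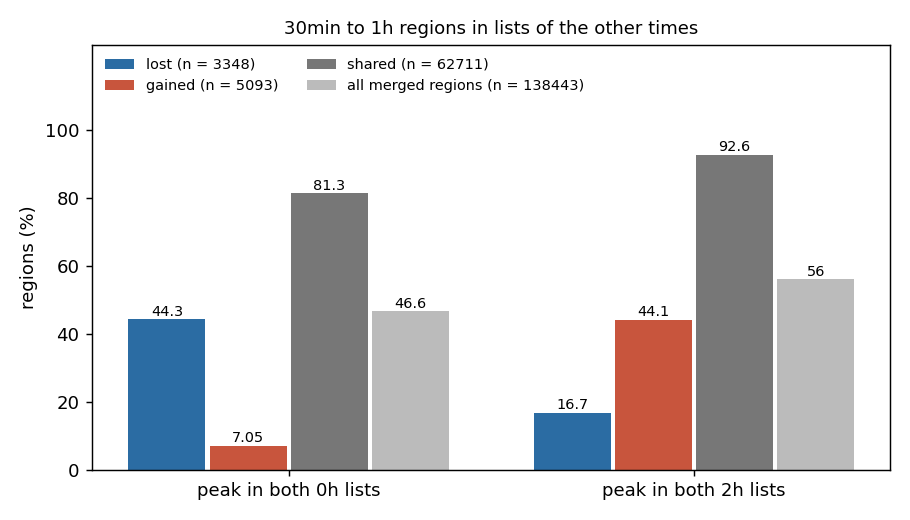
Percent of regions (y axis) with a peak in both 0h lists or both 2h lists (x axis), for regions lost, gained or shared between 30min and 1h and for all merged regions. Lost regions were in both 0h lists in 44.3% and in both 2h lists in 16.7%, and gained regions in 7.05% and 44.1%. The 2h order turned when either 1h library was left out, which also left 1h to be judged from a single list.

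By their own 4 lists, the neighbouring steps had 7652 lost and 7584 gained of 138154 regions from 0h to 30min (5.54% and 5.49%), and 3021 lost and 3868 gained of 142517 from 1h to 2h (2.12% and 2.71%). Each step shares 2 libraries with the step under study, and the differences between steps were not tested.

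Shared regions were compared by the rank of their fold over background within each list, since folds are not scaled between libraries. With limma on normal scores of the 62711 shared regions, 0 were lower and 0 higher at 1h at an adjusted p under 0.01 (0.0% and 0.0%), and the lowest Benjamini-Hochberg adjusted p was 0.371. At an unadjusted p under 0.05, 3365 were lower (5.37%) and 3369 higher (5.37%), so that the 2 directions were even. With a robust trend in the variance, limma called 1 region, in an intron of Ddx31, at an adjusted p of 0.0039, while the other 10 settings called none. In 14177 regions (22.6%) both 1h percentiles lay below both of 30min and in 12775 (20.4%) above. Single regions named from this fit are therefore listed by size, and none passed the threshold.

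Of the 8 largest falls, 7 lay between genes or in introns and 1 in a non-coding exon. The region whose nearest protein-coding gene is Plxna4, a semaphorin receptor, 129708 bp away (chr6:32717900-32718212), stood at the 82.8 and 77.7 percentiles of the shared regions at 30min and at 11.4 and 14.7 at 1h, a change of -67.2 percentile points (score change -1.98, SE 0.27, limma adjusted p = 0.371). In untreated cells it had 49 and 44 fragments, then 26 and 22 at 30min, 7 and 7 at 1h, followed by 9 and 5 at 2h. The groups did not overlap, which the choice of the largest falls made likely, and 2h was as low as 1h. The fall in an intron of Adgrf5, an adhesion receptor (chr17:43442200-43442482), had 20 and 19 fragments at 30min, 6 and 5 at 1h and no peak at 2h, at percentiles of 68.1 and 74.3 and then 6.16 and 3.36. A region nearest to Dmrtb1 (chr4:107706989-107707173), in an exon of the non-coding 1700047F07Rik, had 64 and 41 fragments in untreated cells, then 16 and 19 at 30min, 6 and 5 at 1h, with none listed at 2h, and holds 9 core words. The intron region of Mylk, the myosin light chain kinase, went up and down, with 9 and 15 fragments in untreated cells, then 21 and 19 at 30min, 9 and 6 after 1h and finally 20 and 19. The 8 largest falls ran from -67.2 to -58.6 percentile points.

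Of the 8 largest rises, all but that nearest to Chrm1 lay in introns of protein-coding genes. An intron region of Ddx31, a putative RNA helicase (chr2:28857265-28857537), had 9 and 10 fragments at 30min, 47 and 40 at 1h, 55 and 44 at 2h and a peak of 4 in 1 library of 0h. Its percentiles were 21.8 and 39.9 at 30min and 95.4 and 94.5 at 1h, a change of 64.1 points (score change 2.16, SE 0.3, limma adjusted p = 0.371). The region in an intron of Thada, nearest to Zfp36l2 (chr17:84314461-84314715), rose from 8 and 5 fragments to 23 and 25, with 30 and 26 at 2h and none listed at 0h. The region nearest to Chrm1, a muscarinic receptor gene (chr19:8662464-8662582), stood at percentiles 2.32 and 2.94 and then 69.9 and 69.6. A site in Myo1h went from 8 and 7 to 24 and 21, and 1 of the formin gene Daam1 from 7 and 7 to 24 and 25. In all 8, which were chosen for the size of their rise, the values of 1h lay above both of 30min, with changes from 60.7 to 67.4 points. No region among them passed the adjusted threshold.

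The listed genes had shared regions on both sides, here given as each gene's region of lowest p, chosen after the values were seen. Pax5, which holds cells in the B lineage, had a region 47.3 points lower at 1h, from the 59.9 and 43.9 to the 8.39 and 0.752 percentiles (change -47.3, limma adjusted p = 0.371), with 27 and 17 fragments at 30min and 10 and 6 at 1h. Socs3, a feedback inhibitor of cytokine signalling, had a region that changed by -47.3 points as well (31 and 27 fragments, then 16 and 11), and Sox4, a pre-B cell factor, a region that changed by -35.8 (67 and 60, then 44 and 35). An intron region of Plekho2, which the study names as repressed, changed by -40.8 points, with 56 and 53 fragments in untreated cells, then 35 and 23 at 30min, 13 and 17 at 1h, followed by 11 and 11 at 2h. Upwards, a Stat5b intron region changed by 41.2 points (8 and 8 fragments, then 17 and 17), and a region near Cdkn1a, in an intron of Rab44, by 38.0 (8 and 10, then 20 and 16). None of these had an adjusted p under 0.371.

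Among list members in shared regions, G1 genes had 11 of 100 lower (11%) and 5 higher at the unadjusted threshold, immediate early genes 12 of 138 lower (8.7%) and 3 higher, the genes described as repressed 7 of 99 lower (7.07%) and 1 higher, and sterol synthesis genes 4 of 73 lower and 0 higher, against 5.37% in each direction over all shared regions. Pre-BCR genes had 9 of 123 lower and 5 higher, IL-7 receptor genes 4 and 3 of 73, B-lineage factors 8 and 7 of 139, adhesion genes 5 and 4 of 97, and NuRD genes 3 and 3 of 52. The median change ran from -3.94 points (IL-7 receptor pathway) to 0.283 (NuRD subunits), against -0.145 over all shared regions.

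The regions past the unadjusted threshold were followed in the 0h and 2h lists, with which the 30min to 1h fit shares no library. Of the 48202 regions that all 8 lists held, 2426 were lower at 1h. Their mean percentile was 55.8 and 55.5 in the libraries of 0h, then 46.7 and 47.9 at 30min, 21.6 and 20.9 at 1h, followed by 24.5 and 25.4 at 2h, so that the fall at 1h was also there at 2h. From 0h to 2h, 2130 of them (87.8%) fell in percentile, by a median change of -30.3. Over all 48202 regions 46.7% fell, with a median change of 1.4. In a limma fit of the 0h and 2h lists, 549 (22.6%) of the lower regions were lower at 2h at an adjusted p under 0.01, where 3.24% of all regions were. The 1658 regions higher at 1h had mean percentiles of 28.2 and 29.6 in untreated cells, then 24.8 and 24.1 at 30min, 53.2 and 53.3 at 1h, followed by 49.3 and 48.3 at 2h. Of these, 1408 (84.9%) rose from 0h to 2h, beside 53.3% of all regions, and 128 (7.72%) were called higher, where 1.24% of all regions were. No region passed the adjusted threshold between 30min and 1h, and in most of these regions the direction seen there was also that between 0h and 2h. At 0h the lower class stood at a mean percentile of 55.7 and the higher class at 28.9, against 50.0 over all 48202 regions. The shares over all regions were not matched for 0h rank, and how much of the difference came from the starting rank was not tested. Of the 3365 lower and 3369 higher regions, those without a peak in all 8 lists were not followed. How far 0h ranks follow those of 30min in any region was not tested.

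**Figure D4:**
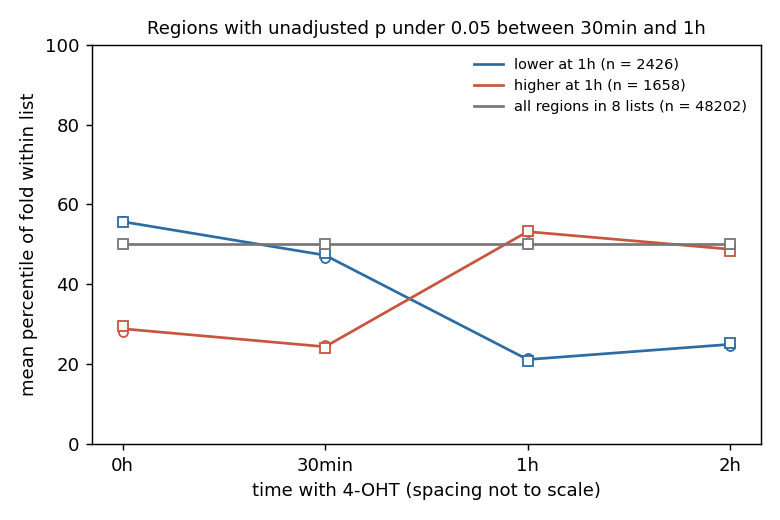
Mean percentile of fold within the list (y axis) by time with 4-OHT (x axis), over regions that all 8 lists held and that were lower (blue) or higher (red) at 1h than at 30min at an unadjusted p under 0.05, and over all 48202 such regions (grey). Circles are replicate 1, squares replicate 2 and lines their mean. The 30min and 1h points chose the regions, while the 0h and 2h points did not, and the lower class stood at 55.7 at 0h and 25 at 2h.

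Lost regions held more IKZF1 core words than gained ones. In the 200 bp around the summit, lost regions had 2.31 ± 1.2 words per 100 bp (SD over 3348 regions), gained regions 1.54 ± 1.03 (5093) and shared regions 2.05 ± 1.15 (62711), beside 1.98 over all regions. The ranges overlap widely from region to region. No word at all stood in 1.4% of lost, 7.03% of gained and 2.68% of shared windows, and 8 or more in 11.6%, 3.18% and 8.12%. GC content was 49.3%, 48.7% and 52.1%, and within windows of 45% to 55% GC the order was the same (2.38, 1.56 and 2.02 words). Away from promoters the values were 2.26, 1.51 and 1.95. Shared regions lower at 1h at the unadjusted threshold had 2.51 and those higher had 1.6, so the 2 ways of reading the step gave the same order. Regions are not replicates, and these differences were not tested.

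**Figure D5:**
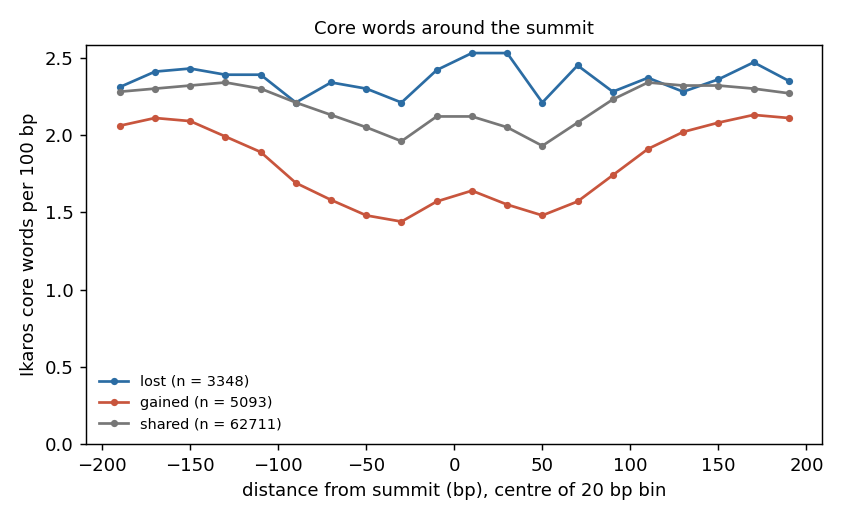
IKZF1 core words per 100 bp (y axis) in 20 bp bins by distance from the summit (x axis, bp) in regions lost, gained or shared between 30min and 1h; points are means over the regions of a class. In the bin centred 30 bp left of the summit, gained regions held 1.44 and lost regions 2.21, while 190 bp to the left they held 2.06 and 2.31.

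The difference in words was largest near the summit. Gained regions fell from 2.06 words per 100 bp in the bin centred 190 bp to the left to 1.44 at 30 bp, whereas lost regions ranged from 2.21 to 2.53 across all bins and shared regions from 1.93 to 2.34.

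Words of other factors were searched on both strands in the same windows, as letters and not as binding sites. The EBF word (TCCC, any 2 bases, GGGA), which contains a core word on either side, stood in 2.93% of lost, 1.75% of gained and 2.29% of all windows. The PU.1 word AGGAAGT, which contains a core word, stood in 15.3%, 13.0% and 13.5%. The forkhead word TGTTTAC went the other way, with 1.55% of lost and 4.01% of gained against 2.61% of all windows, as did the AP-1 word TGANTCA (7.65%, 9.56% and 7.93%). The KLF word GGGCGTG was rarer in lost (1.91%) than in gained (3.73%) and shared windows (4.58%). In lost, gained and all windows, the Runx word TGTGGT stood in 26.7%, 27.1% and 25.3%, the E-box CAGCTG in 17.8%, 16.7% and 16.5%, and the IRF word (GAAA, any 2 bases, GAAA) in 2.87%, 2.32% and 2.55%. CTCF, the insulator protein, had its word in 2.3% of lost and 3.04% of gained but 7.98% of shared windows. Of all windows 5.22% held it, and of regions in 1 list only 1.96%, so a low share was not particular to lost and gained regions. In shared regions lower at 1h the CTCF word stood in 2.88%, in those higher in 8.93%, the EBF word in 4.67% and 2.67%, the IRF word in 3.45% and 1.66%, the PU.1 word in 17.9% and 11.2%, the E-box in 20.7% and 17.5%, and the forkhead word in 2.05% and 4.19%. The AP-1 word had the other order there, with 9.42% in lower and 8.61% in higher regions. The Runx word stood in 29.0% and 28.2% and the KLF word in 2.82% and 3.53%.

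Lost regions lay closer to genes than gained ones. A start site lay within 1 kb of 572 lost (17.1%), 548 gained (10.8%) and 16994 shared regions (27.1%), beside 19.9% of all regions. The order was the same at 500 bp and 2 kb. Of regions in 1 list only, 12.8% had a start site within 1 kb. A share below that of all regions was thus not particular to lost and gained regions. Of distal regions, 52.6% of the lost and 53.5% of the gained were in introns and 43.2% and 43.0% between genes, so the classes differed in their share of promoters rather than in where distal sites lay. The median distance to a start site was 9209.5 bp for lost and 12073 bp for gained regions, beside 11592 bp for regions in 1 list only. Lost regions were nearest to 2783 protein-coding genes and gained regions to 3859, with 978 genes in both.

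Some genes collected several regions. Tas1r2, a taste receptor gene, was nearest to 5 lost and 0 gained of 19 regions, and Bcor, a corepressor gene, to 5 lost and 0 gained of 51. Limch1 had 5 lost and 1 gained of 35 regions, Nedd4l 5 and 1 of 41, and Zfp386 5 and 1 of 170. Rpia, next to the immunoglobulin kappa locus, was nearest to 14 gained and 2 lost of 119 regions. Pde4d, a phosphodiesterase gene, had 13 gained and 5 lost of 231, Auts2 9 gained and 0 lost of 63, Mef2c, a transcription factor of B cells, 9 gained and 1 lost of 123, and Foxp1, a forkhead factor, 8 gained and 3 lost of 100. The genes were ranked by these counts, so the counts are descriptions, and genes with more regions in all have more chances to hold either kind. Over all regions 2.42% were lost and 3.68% gained, and the lost shares of Zfp386 and Pde4d were close to that.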

How the data were processed

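ATAC-seq of 8 libraries was deposited as MACS2 peak lists, of which the 30min and 1h lists were compared. Per the study's methods, reads were aligned with bwa, shifted for the Tn5 offset and limited to short, nucleosome-free fragments, and peaks were called on each library alone. The submitters' processing notes name BWA 0.7.17, MACS2 2.1.2, SAMtools 1.9, bedtools 2.27.1, deepTools 2.3.5 and bcl2fastq 2.20.0. The methods text names a human genome, but the labels give GRCm38, and 0 peaks run past its ends on 21 chromosomes. The exclusion list of the study was not used here. The deposited values are the ratio (fold) of the summit pileup over local background, its −log10 p-value and −log10 q-value (lowest 1.3), and the summit offset. All were made by the authors, and none is scaled between libraries.

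From fold and p-value, whole fragments at each summit were recovered (100.0% of peaks within a tolerance of 0.002 in −log10 p). Peaks overlapping by at least 1 bp were merged. Percentiles in the comparisons of shared regions were taken among those regions, and percentiles of lost and gained regions among all peaks of a list. Shared regions were fitted with limma 3.58.1 (R 4.3.3; lmFit, eBayes, two-sided) on normal scores of the within-list rank of fold, tested on simulated data. An exact permutation test of 2 against 2 libraries cannot go below p = 0.333. No count table was used, so no count model was fitted. Positions were read from GRCm38 and genes from GENCODE M21 (basic set). Counts are from Python 3.11.15 with pandas 2.3.3.

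The regions named were the 8 strongest lost and gained by mean percentile, the 8 largest falls and rises at an unadjusted p under 0.05, up to 4 genes per list with the most lost and gained regions within 20 kb, and the 5 genes nearest to most lost and most gained regions. Other regions are marked as chosen after values were seen. Regions on chromosome 18 or over untranslated exons were left out of the printed sequences. The comparison, lists and rules were chosen with earlier results of these data known.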

Additional observations from a re-analysis of the deposited data

How the results depend on the processing

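Counts of lost and gained regions rest on weak peaks and on both replicates. Limited to regions with over 20 fragments, 16 were lost and 21 gained. With 1 library left out the counts ran from 5991 to 14967 lost and from 8144 to 18824 gained. There, 1 of the times was judged from a single list, a looser rule than the main one. A −log10 q of at least 5, lists of equal length, summit windows and a peak covering at least 50% of the region kept both counts within 1.5 times. The limma calls were 0 under every setting except the robust trend, with 1 higher region. Replicate numbers were shared in the labels but did not pair the libraries (correlation of deviations 0.017). With the replicate block limma called 0 lower and 0 higher (lowest adjusted p 0.338), with 3455 and 3535 at an unadjusted p under 0.05. Elsewhere such counts ran from 2261 to 6219 lower and 2250 to 6469 higher, the highest with 99206 regions tested. The 16 named shared regions kept their sign in all 166 recomputed values. They were chosen as the largest changes in the same lists, so a kept sign was to be expected and is no measure of stability.

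With only GGGAA and TTCCC counted, words per 100 bp were 0.318 in lost, 0.183 in gained and 0.262 in shared regions. Promoter shares were 11.1%, 6.58% and 22.6% within 500 bp and 23.6%, 16.7% and 32.7% within 2 kb. For regions with at least 10 fragments, chosen after seeing the data, 53.6% of lost and 6.32% of gained regions were in both 0h lists, and 57.9% of gained in both 2h lists. Without the first or second 1h library, where 1h was judged from a single list, the 2h shares changed order (33.6% of lost and 25.1% of gained, and 28.2% and 21.9%). With 1 library left out, the lost share in the 0h lists ran from 22.1% to 61.5% and in the 2h lists from 8.91% to 35.2%, and the gained share from 5.5% to 17.6% and from 21.9% to 63.7%. Gene list shares within 50 kb stayed inside the wide intervals of 20 kb, but the excess of lost regions went for NuRD subunits (9 lost, 9 gained), the IL-7 pathway (10 and 11) and B-lineage factors (15 and 17).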
